A study of Rattus norvegicus with 4 samples.

Results

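The genes described here carry mucosal IgA across the gut epithelium or guide IgA-secreting plasma cells to the gut wall and keep them alive. Members were the gene probes of the array whose name, without a suffix for predicted or mapped genes and ignoring case, equalled Pigr, Igj, Jchain, Ccl28, Ccl25, Ccr9, Ccr10, Madcam1, Tnfsf13b or Tnfsf13. These 10 names stand for 9 genes, since Igj is the older name of Jchain. The rule found 7 probes among 41012, which bear 35652 gene or transcript names, with 1 probe each for Pigr, Ccl28, Ccl25, Jchain (named Igj on the array), Ccr9, Madcam1 and Tnfsf13. No probe bore the name Ccr10 or Tnfsf13b. RefSeq synonyms led to a probe named Gpr2 for Ccr10 and to one named RGD1561519 for Tnfsf13b. Those 2 probes are given beside the members and are not counted among the 7.

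The RNA came from the small intestine of male Wistar rats, an outbred stock, after removal of the Peyer's patches. The compost group, 2 rats, drank tap water holding 1% (v/v) of an extract made from a fermented compost, for 12 weeks from the age of 3 weeks. The control group, 2 rats, drank plain tap water. Each rat had 1 array, and the arrays shared 1 slide and 1 scan with each group at its own positions, so that position and group cannot be told apart. The comparison asked how drinking the extract bears on gene expression in the gut, and the labels do not say which stretch of the small intestine was taken.

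IgA is made as a polymer by plasma cells beneath the epithelium, and the joining chain encoded by Jchain holds the polymer together. The polymeric immunoglobulin receptor, encoded by Pigr, binds that polymer at the base of epithelial cells, carries it through the cell and releases it into the lumen with a part of the receptor, the secretory component. Plasmablasts reach the gut wall by the addressin Madcam1 on venules and by epithelial chemokines, Ccl25 acting on Ccr9 in the small intestine and Ccl28 acting on Ccr10 at most mucosal surfaces. The cytokines APRIL (Tnfsf13) and BAFF (Tnfsf13b) support the survival of plasma cells and B cells.

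Levels are log2 spot intensities after background subtraction, with the 75th percentile of the array subtracted, so that 0 marks the 75th percentile and a step of 1 is a doubling. A level can be set against the same gene on another array but not against another gene. Each log2 difference is compost minus control, with its standard error from limma fitted over 28415 probes well above background on at least 2 arrays. All 7 member probes were well above background on all 4 arrays. Spots had a median intensity of 113 and 80.8 on the compost arrays, against 88.4 and 87.2 on the control arrays. Across the probes kept (probes are not independent of each other), Pearson's r was 0.981 between the compost arrays, 0.986 between the control arrays and 0.981 to 0.988 across groups. A gut epithelial origin, though not the stretch of gut, was borne out by epithelial markers. All 18 measured were well above background on every array. Among them were Vil1 and, named after their values were seen, Cdx2, Krt20 and Cdh17.

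The IgA genes did not move as a block. The levels of Jchain, Ccl28, Madcam1 and Tnfsf13 were higher in each compost rat than in either control rat, that of Pigr was lower in each compost rat, and those of Ccl25 and Ccr9 overlapped between the groups. That made 4 of 7 members wholly above the control rats, against 12.4% of all probes kept, and 1 of 7 wholly below, against 15.5%. At an unadjusted p under 0.05 limma had Jchain and Ccl28 higher, 2 of 7 members, where the share over all probes was 1.41%, and 0 of 7 lower, where it was 1.80%. After Benjamini-Hochberg adjustment 0 of 7 members passed, as did 0.00% of probes in either direction, while 913 probes had an unadjusted p under 0.05. The median log2 difference of the 7 members was 0.39, and that of all probes kept was -0.02. Since nothing passed, every difference below is a measured value and none is a call. The members were chosen with earlier results of these data known, so the shares above are descriptions.

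**Figure D1:**
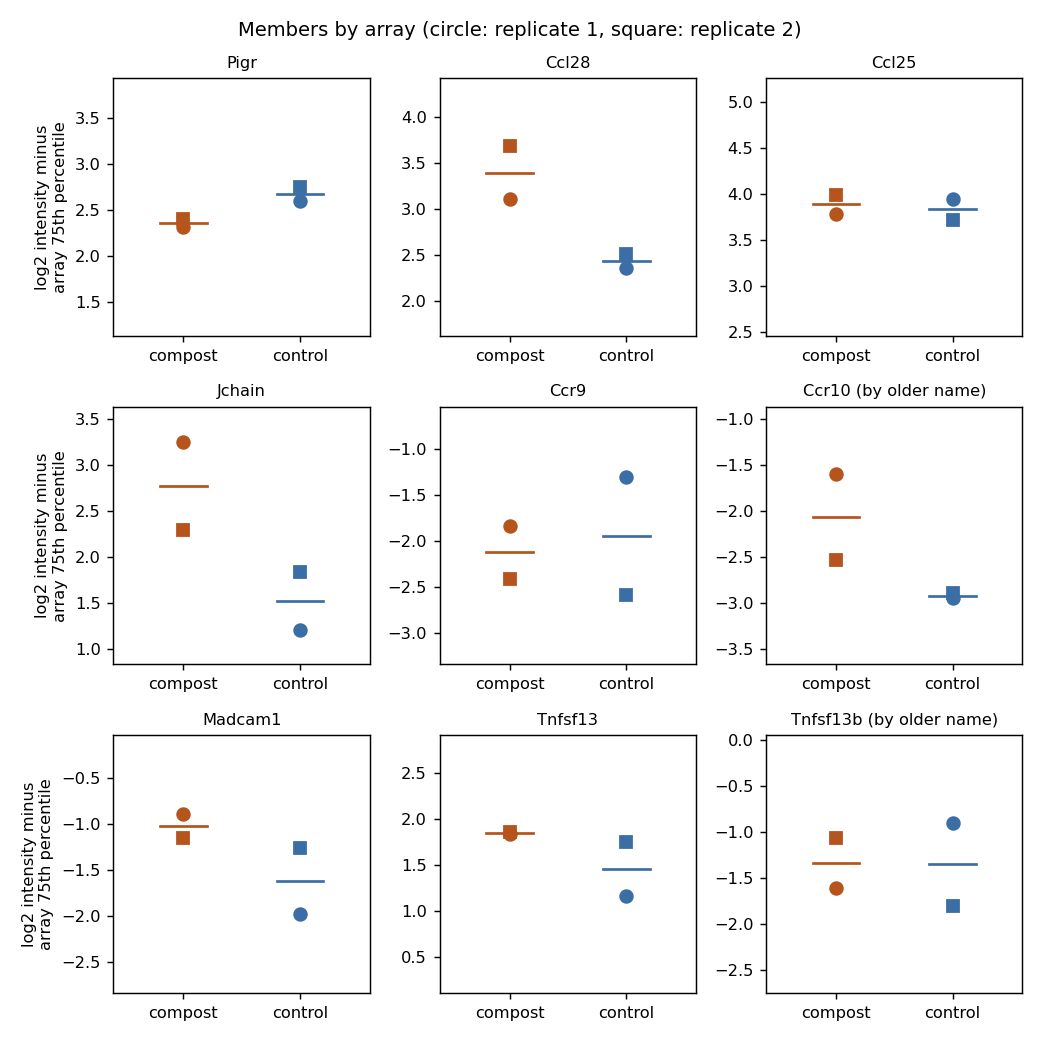
Level of each gene on each array, as log2 intensity minus the array's 75th percentile, with compost rats left and control rats right. Circles are replicate 1, squares are replicate 2, bars are group means (n = 2 each), and every panel spans the same number of log2 units. Jchain, Ccl28, Ccr10, Madcam1 and Tnfsf13 have both compost points above the control points, and Pigr has both below.

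Among the epithelial members, Pigr and Ccl28 went opposite ways. Pigr had levels of 2.31 and 2.40 in compost rats, against 2.60 and 2.75 in control rats. The groups did not overlap, and the gap between the nearest rats, 0.20, was wider than the distance between the rats of either group, 0.09 in compost and 0.15 in control. The log2 difference was -0.32 ± 0.18 SE, 1.25-fold higher in control, and did not pass (unadjusted p = 0.143, adjusted p = 1.00 by limma). Its 95% interval, not adjusted for the number of probes, ran from -0.79 to 0.16. The unscaled intensities overlapped, at 4913 and 3852 in compost rats and 4673 and 5112 in control rats, so the separation appears only after scaling between arrays. The difference stayed between -0.39 and -0.24 without any 1 array.

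Ccl28, the chemokine of mucosal epithelia that attracts cells with Ccr10, had levels of 3.11 and 3.67 in compost rats, against 2.35 and 2.50 in control rats. The groups were 0.60 apart at their nearest rats, the widest gap among the 7 members, and the compost rats differed by 0.57 between themselves. The log2 difference was 0.96 ± 0.26 SE, a 1.95-fold higher mean in compost (95% interval 1.22-fold to 3.12-fold, unadjusted). It had the smallest unadjusted p of the members, 0.0154, and an adjusted p of 1.00 by limma. A difference this far upward was found in 1.19% of the probes kept. Without compost replicate 2 it was 0.68 and without compost replicate 1 it was 1.25.

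Ccl25, the chemokine that small intestinal epithelium makes for cells with Ccr9, had levels of 3.79 and 3.99 in compost rats, against 3.94 and 3.72 in control rats. The values were interleaved, and all 4 rats lay within 0.27. Compost minus control was 0.06 ± 0.20 SE (unadjusted p = 0.787, adjusted p = 1.00 by limma), with a 95% interval of 0.725-fold to 1.49-fold. The 2 epithelial chemokines thus differed in their values: per array, the log2 of Ccl28 minus that of Ccl25 was 0.91 higher in compost than in control, and the groups did not overlap in it.

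RefSeq promoter windows show where these genes begin. The 250 bases before the annotated start of Pigr, of Ccl28, of Madcam1 and of Jchain are printed 5′ to 3′ on the strand of the gene, because the results turn on these genes, with capitals marking matches to the motifs named below. The windows come from RefSeq on the rat build GRCr8, which held such a window for 7 of the 9 genes and none used here for Ccr9 and Ccr10. Pigr lies at chr13:44850932-44851181 (plus strand), Ccl28 at chr2:53333821-53334070 (plus strand), Madcam1 at chr7:10690323-10690572 (minus strand) and Jchain at chr14:19822726-19822975 (plus strand).
Pigr: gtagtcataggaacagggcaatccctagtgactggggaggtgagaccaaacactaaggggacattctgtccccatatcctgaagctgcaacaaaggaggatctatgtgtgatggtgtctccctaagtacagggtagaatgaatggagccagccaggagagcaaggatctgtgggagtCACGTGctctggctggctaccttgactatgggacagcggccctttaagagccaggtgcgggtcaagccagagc
Ccl28: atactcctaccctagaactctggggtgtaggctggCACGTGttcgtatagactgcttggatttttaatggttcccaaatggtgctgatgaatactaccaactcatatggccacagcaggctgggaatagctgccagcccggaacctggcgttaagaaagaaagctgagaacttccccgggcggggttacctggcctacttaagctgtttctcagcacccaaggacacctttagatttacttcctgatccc
Madcam1: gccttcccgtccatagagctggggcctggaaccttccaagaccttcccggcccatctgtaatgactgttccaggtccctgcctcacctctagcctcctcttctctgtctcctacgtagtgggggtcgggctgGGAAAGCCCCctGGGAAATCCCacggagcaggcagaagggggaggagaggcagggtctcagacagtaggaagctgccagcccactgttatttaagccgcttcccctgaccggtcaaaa
Jchain: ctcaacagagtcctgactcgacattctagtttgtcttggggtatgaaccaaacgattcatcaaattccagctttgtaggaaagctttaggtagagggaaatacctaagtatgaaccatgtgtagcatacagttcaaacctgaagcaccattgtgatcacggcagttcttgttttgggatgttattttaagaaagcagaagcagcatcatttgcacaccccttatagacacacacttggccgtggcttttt
Both strands were searched for the E-box CACGTG, which USF factors bind, the interferon response element (GAAA, any 2 bases, GAAA), the STAT element TTCNNNGAA and the NF-kB consensus. The E-box CACGTG began 73 bases before the start of Pigr and 215 bases before that of Ccl28, and 5.59% of 33469 RefSeq promoters of this length hold it. Madcam1 held 2 matches to the NF-kB consensus, GGAAAGCCCC 118 bases and GGGAAATCCC 106 bases before its start, where 3.54% of promoters hold at least 1. The interferon response element, in 3.41% of promoters, and the STAT element, in 7.67%, were not in these 4 windows, and the Jchain window held none of the motifs. Such a match is a run of letters and was not tested as a binding site.

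Jchain had the largest difference of all the members. Its levels were 3.25 and 2.29 in compost rats, against 1.21 and 1.84 in control rats. Both compost rats were higher, 0.45 apart from the control rats at the nearest, though the compost rats themselves differed by 0.96. The log2 difference was 1.25 ± 0.41 SE, a 2.37-fold higher mean in compost (95% interval 1.11-fold to 5.05-fold, unadjusted). It did not pass (unadjusted p = 0.0327, adjusted p = 1.00 by limma), and 0.725% of the probes kept were at least as far upward. Compost replicate 1 carried much of it: without that rat the log2 difference was 0.77, and without compost replicate 2 it was 1.73. On the unscaled spots the intensities were 9423 and 3575 in compost rats, against 1782 and 2726 in control rats.

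The chemokine receptors of plasma cells did not share 1 pattern. Ccr9, the receptor for Ccl25, which T cells of the small intestine carry as well as IgA plasmablasts, had levels of -1.83 and -2.41 in compost rats, against -1.30 and -2.58 in control rats. The groups overlapped, the compost rats lying between the control rats, which were 1.28 apart. Compost minus control was -0.18 ± 0.49 SE (unadjusted p = 0.730, adjusted p = 1.00 by limma), with a 95% interval of 0.360-fold to 2.17-fold. Its sign turned with the rat left out: leaving out control replicate 1 gave 0.46, leaving out compost replicate 2 gave 0.11, and leaving out control replicate 2 gave -0.82.

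Ccr10, the receptor for Ccl28, reached through the older name Gpr2, had levels of -1.59 and -2.53 in compost rats, against -2.94 and -2.89 in control rats. Both compost rats were higher, compost replicate 1 by the wider margin, and the control rats were nearly level. The log2 difference was 0.86 ± 0.35 SE, 1.81-fold, and did not pass (unadjusted p = 0.0641, adjusted p = 1.00 by limma). Without compost replicate 1 it was 0.39. Ccl28 and its receptor were thus both higher in each compost rat, while Ccl25 and its receptor overlapped between the groups. Within the compost group their order was opposite: Ccl28 was higher in replicate 2 and Ccr10 in replicate 1.

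**Figure D2:**
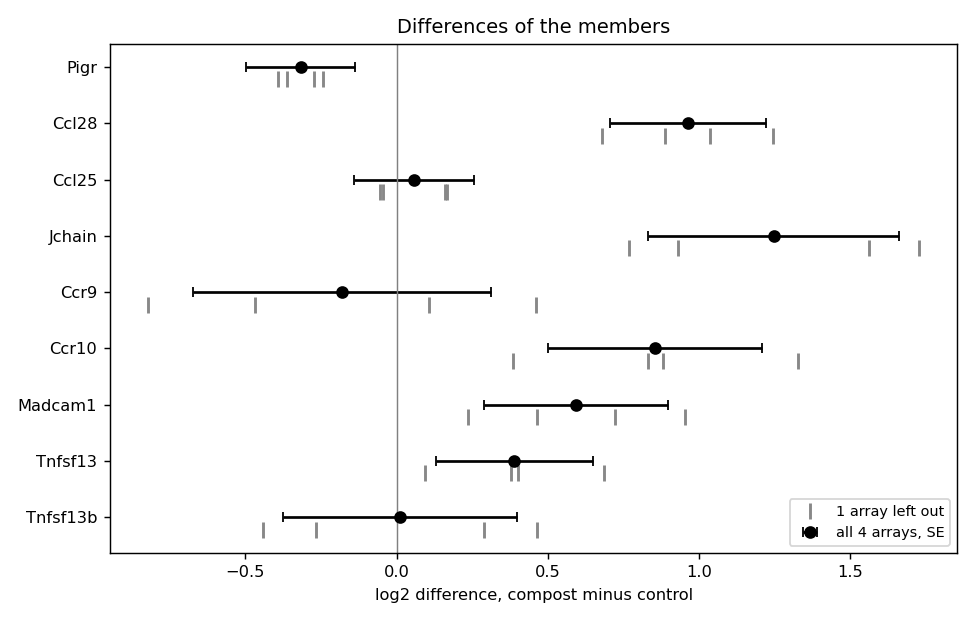
Log2 difference of each gene, compost minus control, with its standard error from limma (points and bars, 2 rats per group), and the difference with each array left out in turn (grey ticks). Ccr10 and Tnfsf13b were matched by older names. All ticks of Jchain, Ccl28, Ccr10, Madcam1 and Tnfsf13 lie right of 0 and all ticks of Pigr lie left of it, while those of Ccl25, Ccr9 and Tnfsf13b fall on both sides.

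Set side by side, the epithelial members had log2 differences of -0.32 (Pigr), 0.96 (Ccl28) and 0.06 (Ccl25), and the plasma cell members had 1.25 (Jchain) and -0.18 (Ccr9). Neither set moved as 1. The mean deviation from each gene's average over the arrays was -0.03 and 0.26 in compost rats, against -0.13 and -0.10 in control rats, for the 3 epithelial members. For the 2 plasma cell members it was 0.65 and -0.12 in compost rats, against -0.10 and -0.43 in control rats, so these groups overlapped. With Ccr10 added, a choice made after its value was seen, the plasma cell mean was 0.73 and -0.09 in compost rats, against -0.22 and -0.42 in control rats. The mean difference between compost and control was 0.23 for the 3 epithelial members. It was 0.53 for the 2 plasma cell members and 0.64 with Ccr10 added. The mean of the 2 plasma cell members minus the epithelial mean was 0.68 and -0.38 in compost rats, against 0.03 and -0.32 in control rats. The groups overlapped in it, so the rats do not separate the 2 sets.

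Single pairs differed in this. The joining chain, which plasma cells add to IgA, was set against Pigr, which carries the product out. The log2 level of Jchain minus that of Pigr, centred on its mean over the arrays, was 1.31 and 0.26 in compost rats, against -1.02 and -0.54 in control rats. Both compost rats were higher, and the difference of 1.56 means that Jchain moved 2.96-fold relative to Pigr within the arrays. An exact permutation test over the 4 arrays, two-sided and run for this pair alone, gave p = 0.333, the smallest that 2 rats against 2 can give. Any pair whose groups do not overlap gives that value, so it adds nothing to the order of the rats. Without 1 array the difference lay between 1.04 and 2.09, lowest without compost replicate 1. Jchain minus Ccl25 also separated the groups, by 1.19, with centred values of 1.18 and 0.01 in compost rats, against -1.02 and -0.17 in control rats. Jchain minus Ccl28, which differed by 0.28, and Ccr9 minus Ccl25, which differed by -0.24, overlapped between the groups. Pairs within 1 set separated the groups too: Ccl28 minus Pigr differed by 1.28 and Ccr9 minus Jchain by -1.43. A separated pair was thus not particular to plasma cell genes set against epithelial genes.

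Madcam1, the addressin of gut venules, had levels of -0.90 and -1.16 in compost rats, against -1.98 and -1.26 in control rats. The compost rats were higher by only 0.11 at the nearest pair, and the control rats were 0.72 apart. Madcam1 thus differed by 0.59 ± 0.30 SE, 1.51-fold (unadjusted p = 0.112, adjusted p = 1.00 by limma), and it was 0.23 without control replicate 1. Its partner integrin on lymphocytes is built from Itga4 and Itgb7, named here after their values were seen, with log2 differences of 0.04 ± 0.42 and 0.45 ± 0.35 and overlapping groups. Of 21 general endothelial markers 15 were measured, 11 higher and 4 lower, with a median of 0.11 that ranged from -0.31 to 0.53 without 1 array. Each compost rat was above both control rats in 1 of them, 6.67% against 12.7% of all genes. That 1 was Pecam1 (1.23 ± 0.53), which passed the filter on dim probes through the compost rats alone. How these markers and Madcam1 differ was not tested. The summed intensity of the endothelial markers, each relative to the 75th percentile, was 16.7 to 24.2 in compost rats and 13.9 to 25.4 in control rats.

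Of the survival factors, Tnfsf13 (APRIL) had levels of 1.84 and 1.86 in compost rats, against 1.16 and 1.75 in control rats. The compost rats were nearly level, and only 0.08 separated them from the higher control rat. Compost minus control came to 0.39 ± 0.26 SE, 1.31-fold (unadjusted p = 0.197, adjusted p = 1.00 by limma), and without control replicate 1 it was 0.09. Tnfsf13b (BAFF), reached through RGD1561519, had levels of -1.61 and -1.06 in compost rats, against -0.89 and -1.80 in control rats. Its groups overlapped and the log2 difference was 0.01 ± 0.39 SE (unadjusted p = 0.978). The plasma cell receptor for both cytokines, Tnfrsf17 (BCMA), had levels of 2.22 and 1.36 in compost rats, against 0.61 and 1.07 in control rats. It was higher in each compost rat, with a log2 difference of 0.95 ± 0.36 (unadjusted p = 0.0507).

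Other genes of mucosal IgA induction, plasma cell survival and lymphocyte homing were taken as a list of 37. It was chosen, like the other lists, with earlier results of these data known, so shares of it are descriptions. Of the 37 genes 27 were measured. None passed in either direction, 0 higher and 0 lower. By value 22 were higher in compost and 5 lower, with a median log2 difference of 0.35. That median was 0.16 with normexp background correction, 0.18 without compost replicate 1, 0.21 without control replicate 2 and 0.62 without control replicate 1. For comparison, all 24313 genes or unnamed transcripts had a median of -0.02, and 46.5% of them were higher. In 11 of the 27 each compost rat exceeded both control rats, 40.7% against 12.7% of all genes, and in 3 each was below, 11.1% against 15.2%. The 4 with the smallest p were Ccr6 (1.13 ± 0.19), a receptor that brings B cells towards the epithelium, Il10 (1.44 ± 0.24), a cytokine that favours IgA production, Cd40 (0.87 ± 0.18), through which T cells license B cells, and Cxcr4 (1.07 ± 0.23), which holds plasma cells in survival niches. Its ligand Cxcl12 differed by 0.04 ± 0.31. Glycam1, a product of high endothelial venules of lymph nodes, stood apart by a single array: its level was -4.29 and 1.01 in compost rats, against -5.45 and -5.30 in control rats, where replicate 1 was not well above background. The lowest 2 were Runx3 (-0.74 ± 0.18), a transcription factor of TGF-beta signalling and T cells, and Il15 (-0.62 ± 0.21), an epithelial cytokine for intraepithelial lymphocytes. Cxcl12, Glycam1, Runx3 and Il15 were named after their values were seen.

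**Figure D3:**
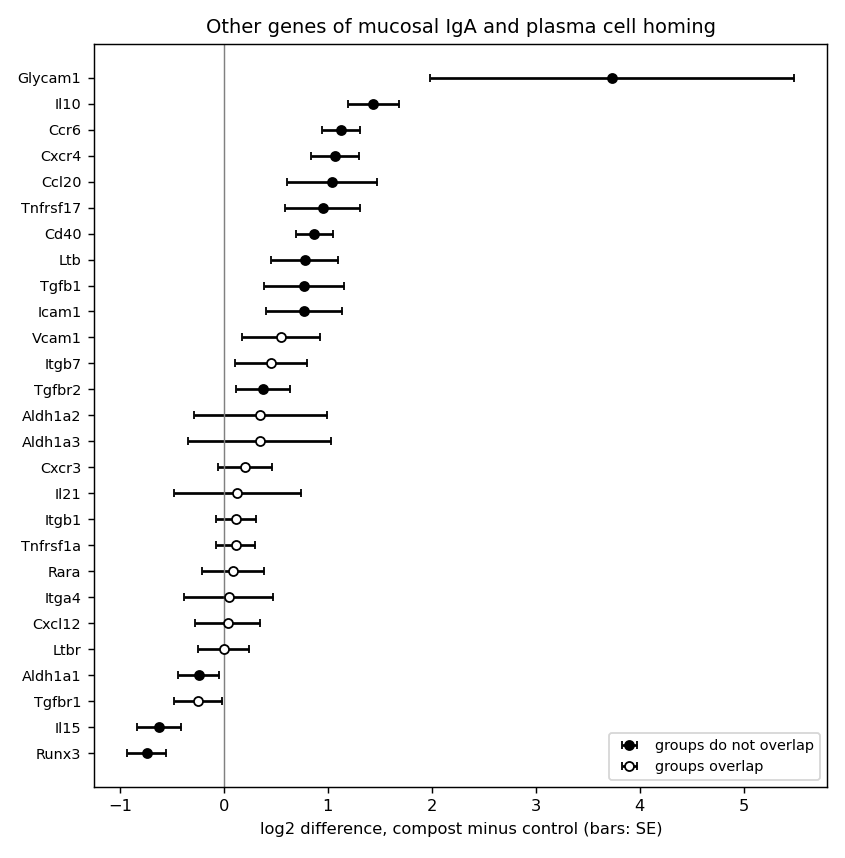
Log2 difference, compost minus control, with its standard error from limma for the 27 measured genes of the list on mucosal IgA and plasma cell homing, members left out. Filled points mark genes whose groups do not overlap, open points those whose groups do. Il10, Ccr6 and Cxcr4 are among the highest, and Glycam1 has the widest error bar.

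Genes known to act on Pigr transcription, among them cytokines, their receptors, Toll-like receptors and transcription factors, were measured in 24 of 31 cases. None passed (0 higher, 0 lower), 16 were higher and 8 lower, and the median was 0.09. Among them, Tlr2, the receptor for bacterial lipoproteins, differed by 1.13 ± 0.27, interferon gamma, Ifng, by 0.92 ± 0.24, the lipopolysaccharide receptor Tlr4 by 0.53 ± 0.22 and the NF-kB subunit gene Nfkb1 by 0.33 ± 0.18. These 4 had the smallest p of the list, and all were higher in each compost rat. Over the list, each compost rat was above both control rats in 7 of 24, 29.2% against 12.7% of all genes. In 2 of 24 each was below, 8.33% against 15.2%. How these genes bear on the level of Pigr was not tested. The genes of the E-box factors, Usf1 (0.09 ± 0.18) and Usf2 (-0.09 ± 0.19), named after their values were seen, differed by less than their standard errors.

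Genes of transcytosis, which move the receptor with its cargo from the basal to the apical side, were measured in 18 of 19 cases. None passed (0 higher, 0 lower), 9 were higher and 9 lower, with a median of -0.01. Mal2, which hepatic cell lines need for carrying the receptor across, was lower in each compost rat, with levels of 3.48 and 3.66 in compost rats, against 4.03 and 4.15 in control rats, and a log2 difference of -0.52 ± 0.19 (unadjusted p = 0.0402). Rab3b, a small GTPase that binds the receptor, differed by 0.42 ± 0.19, the apical fusion protein gene Stx3 by -0.25 ± 0.19 and Rab17, a GTPase of transcytosis, by -0.23 ± 0.23.

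Marker lists of the cells that make these transcripts were set beside them, and some genes, such as Cr2 and Ccr6, stand in more than 1 list. In bulk tissue, fewer cells of a type and less RNA per cell cannot be told apart. These lists too were chosen with earlier results of these data known, so shares of them are descriptions. Of 20 plasma cell markers 11 were measured, 10 higher and 1 lower, with a median of 0.66, or 0.37 without compost replicate 1. In 8 of the 11 each compost rat was above both control rats, 72.7% against 12.7% of all genes. They included Eaf2 (1.91 ± 0.18), Mzb1 (1.69 ± 0.49), a chaperone of antibody assembly, and Prdm1 (0.68 ± 0.21), the master regulator of plasma cell identity. Their median deviation was 0.50 and 0.04 in compost rats, against -0.21 and -0.29 in control rats, with compost replicate 1 highest as for Jchain. Their summed intensity overlapped, at 235 to 259 in compost rats and 219 to 267 in control rats. Most of that sum on every array came from Sdc1 (-0.01 ± 0.21), a gene that epithelium also expresses. The overlap thus says little about the other plasma cell markers. Of 16 B cell markers 9 passed the filter, all of them higher, with a median of 1.37. That median was 0.63 with normexp background correction and 0.89 without compost replicate 2. The genes with the smallest p were Cd22 (1.37 ± 0.30), Ly86 (0.91 ± 0.24), Cd79b (2.43 ± 0.64) and Cd72 (1.45 ± 0.42). The summed intensity of the 9 was 1.84 to 3.52 in compost rats, against 0.952 to 1.04 in control rats. Cr2 and Ms4a1, named after their values were seen, passed through the compost rats alone, and Cd22 was not well above background in control replicate 2. The 6 markers well above background on all arrays had a median of 0.89. Of 17 follicle markers 12 passed the filter, 10 higher and 2 lower, led by Cxcl13 (3.24 ± 0.30), the chemokine of B cell follicles. Cr2 and Ccr7 passed through the compost rats alone. The median was 1.04, also over the 9 well above background on all arrays, and the summed intensity was 27.3 to 51.4 in compost rats, against 18.6 to 20.6 in control rats. Most of that sum on every array came from Ccl20 (1.04 ± 0.44) and Ltb (0.78 ± 0.32), named after their values were seen. It thus says little about the other follicle markers. In both of these lists compost replicate 2 was the higher compost rat, with median deviations of 1.18 for B cells and 0.75 for follicles, against 0.14 and 0.16 in compost replicate 1, the reverse of the order in Jchain and Ccr10. Follicle tissue retained in a sample was not tested as a part of these differences.

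The epithelial markers were level: 8 of 18 were higher and 10 lower, with a median of -0.01, and the summed intensity was 2040 to 2590 in compost rats and 2263 to 2268 in control rats. Absorptive enterocyte markers, 18 of 20 measured, had 1 higher and 17 lower with a median of -0.46, the same direction as Pigr. That median was -0.19 without compost replicate 1 and -0.69 without compost replicate 2, and -0.25 without control replicate 1. Their summed intensity was 1638 to 2091 in compost rats, against 2291 to 2846 in control rats. Lct, the lactase gene, and Alpi, an intestinal alkaline phosphatase gene, passed the filter through the control rats alone. Paneth and goblet cell markers, 11 of 18 measured, had 9 higher and 2 lower with a median of 0.23, or 0.07 without control replicate 2. T cell markers, which share Ccr9's carrier cells, had 10 of 17 higher with a median of 0.03, and their summed intensity was 47.4 to 66.0 in compost rats and 41.2 to 78.4 in control rats. Control replicate 1 was the highest of the rats and control replicate 2 the lowest both for Ccr9 and for the T cell median, while the order of the compost rats differed between them. Myeloid markers, cells that make Tnfsf13 and Tnfsf13b, had 18 of 19 higher with a median of 0.64, which was 0.20 without compost replicate 1 and 1.01 without compost replicate 2, and a summed intensity of 67.3 to 108 in compost rats, against 49.2 to 65.7 in control rats. Stromal and muscle markers had 11 of 12 higher with a median of 0.21, or -0.30 without compost replicate 1, and a summed intensity of 69.1 to 118 in compost rats and 78.3 to 81.1 in control rats. In 0 of these 12 was each compost rat above both control rats, against 12.7% of all genes. Of 10 pancreas and fat genes 5 were measured, 3 higher and 2 lower. Prss1 (2.08 ± 0.59, with control replicate 1 not well above background) and Adipoq (1.25 ± 0.54) were higher in each compost rat. The summed intensity was 8.45 to 8.74 in compost rats and 8.21 to 8.63 in control rats. Most of that sum came from Cela1 (-0.16 ± 0.19), so it says little about Prss1 and Adipoq. The part of these cell types in the members' differences was not tested.

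**Figure D4:**
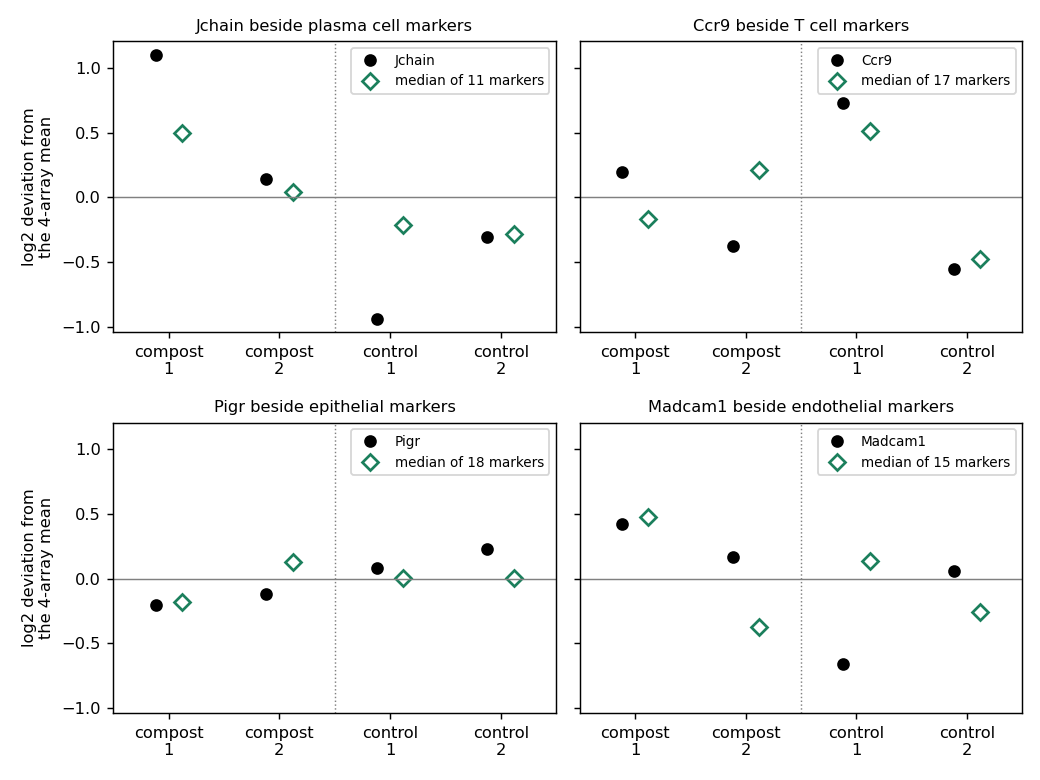
Deviation of a gene from its mean over the arrays (black) beside the median deviation of the markers of the cells that make it (green), on a log2 scale, for each array, compost left of the dotted line and control right of it. Jchain and the plasma cell markers are highest in compost replicate 1, and Ccr9 and the T cell markers are highest in control replicate 1 and lowest in control replicate 2. Pigr is lower in both compost rats while the epithelial markers are lower in only 1.

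Patterns over the 4 arrays were compared by the Euclidean distance between centred log2 levels, over 10687 named genes well above background on every array. With 4 arrays many genes lie close, and nearness is a description. Nearest to Jchain were Rnase6 (distance 0.197), Ccl12 (0.226) and Sting1 (0.273), and nearest to Ccl28 were Cilp (0.133), Mmp12 (0.223) and Il1rl1 (0.227). Nearest to Ccr9 were Tbc1d21 (0.129), Adamts13 (0.136) and Zbp1 (0.147), and nearest to Madcam1 were Ckm (0.0770), Asns (0.0971) and Car4 (0.112). None of the members was among the nearest 3 of another member.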

How the data were processed

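Total RNA from 4 rats was labelled with Cy3 and read on 1-colour Agilent rat arrays. The deposited intensity of each spot came from Agilent Feature Extraction 9.1.3.1, per the submitters' processing notes, which detrended and background-subtracted it, per the file headers, without scaling between arrays. In the authors' deposited value table each intensity was a rounded copy, within 0.497% of the scanner value at most. Its column medians were 102 and 73.9 for compost and 80.2 and 79.4 for control, on a linear scale without centring.

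Outlier spots were left out, which removed 31 of 41012 probes, and saturated spots were kept. Log2 values were averaged per probe, less each array's 75th percentile. limma 3.58.1 in R 4.3.3 (lmFit, eBayes, two-sided, Benjamini-Hochberg over 28415 probes, threshold 0.05) compared compost with control. The fit was tested on simulated data, with independent values and added shifts larger than any member's difference. That test does not show how well differences of the members' size are found. Replicates are individual rats, per the labels. The number of arrays limits the precision. The members, gene lists and motifs were chosen with earlier results of these data known.

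A gene of a list was represented by its probe kept with the highest mean. Names were updated through a RefSeq table of GRCr8, used for names: accessions matched 10835 probes, symbols 5201 and synonyms 3488, while 21488 stayed as the file named them. Every member was named, and from each other list up to 4 genes with the smallest unadjusted p, others being marked as chosen after their values were seen. For members spanning at least 1 log2 unit the 3 nearest genes were named. Alternatives were normexp background correction (offset 50), quantile scaling, another percentile base, no or a stricter filter, another variance model, the deposited table, each array left out and the replicate block. The labels do not say whether the replicate numbers pair the rats. Deviations of like-numbered rats from their group means correlated at -0.04 over probes. Within a group the deviations of the rats mirror each other, so this is a single correlation. It cannot show whether the rats were paired.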

Additional observations from a re-analysis of the deposited data

How the results depend on the processing

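Each difference was recomputed under 12 other settings, 8 of which kept all arrays. Under those 8, the 7 members kept their direction, and Jchain ranged from 1.24 to 1.27, Ccl28 from 0.95 to 1.01, Madcam1 from 0.48 to 0.59, Tnfsf13 from 0.38 to 0.39, Pigr from -0.33 to -0.28, Ccl25 from 0.04 to 0.08 and Ccr9 from -0.19 to -0.15. Without 1 array the ranges were 0.77 to 1.73 for Jchain, 0.68 to 1.25 for Ccl28, 0.23 to 0.95 for Madcam1, 0.09 to 0.68 for Tnfsf13 and -0.39 to -0.24 for Pigr. Ccl25 ranged from -0.05 to 0.17 and turned when compost replicate 2 (-0.0457) or control replicate 2 (-0.0544) was left out. Ccr9 ranged from -0.82 to 0.46 and turned when compost replicate 2 (0.11) or control replicate 1 (0.46) was left out. Tnfsf13b, near 0, turned with the percentile taken over probes well above background on all arrays (-0.000405) and when compost replicate 2 (-0.26) or control replicate 2 (-0.44) was left out. The cause was not tested. Members wholly above control numbered 4 to 6 and members wholly below 1 to 2 without 1 array, since 3 arrays separate more readily. limma called 1 probe with normexp background correction and 0 to 2 without 1 array, 2 of them without control replicate 2, and no member among them. With the replicate block it called 0 probes, with 901 at an unadjusted p under 0.05, and Jchain had a standard error of 0.44 against 0.41. Each member had 1 probe, so averaging over probes could not be run. Lone arrays left in a group were assumed to vary like the other group. Among the list medians, those of endothelial markers (-0.31 to 0.53), T cell markers (-0.47 to 0.49), epithelial markers (-0.19 to 0.16) and stromal markers (-0.30 to 0.64) turned with the array left out. The median of the transcytosis genes turned without compost replicate 1 (0.00727) and without control replicate 2 (0.00595). Both it (0.00998) and that of epithelial markers (0.00160) also turned with normexp, and the epithelial median with quantile scaling (0.0172).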
